A study of Mus musculus with 6 samples.

Results

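The 7 genes described here encode inhibitors of cyclin-dependent kinases (CDKs) other than p21: Cdkn1b and Cdkn1c of the Cip/Kip family, Cdkn2a, Cdkn2b, Cdkn2c and Cdkn2d of the INK4 family, and the phosphatase gene Cdkn3. They were taken by symbol from a table of 24421 genes measured in whole embryonic mouse hearts at E18.5, late in gestation. All 7 symbols were in the table, and 5 of them, all but Cdkn2a and Cdkn2b, reached 1 FPKM (fragments per kilobase of transcript, scaled for sequencing depth) in at least 3 libraries. Poly(A) RNA was sequenced from 3 hearts labelled Gas2l3 -/- and 3 labelled wildtype, all on a C57/Bl6 background with no other allele or treatment named. Gas2l3 encodes a linker between actin filaments and microtubules, and the study's title connects its deletion with cytokinesis of heart muscle cells. The labels do not say which exons were deleted, whether the deletion was in all cells, or whether the 6 libraries are 6 embryos; p-values reflect only how far these samples differ among themselves. The comparison asks whether inhibitor transcripts other than that of p21 (Cdkn1a), a target of the transcription factor p53, differed between the groups.

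CDK inhibitors hold cells out of division at different points. INK4 proteins bind CDK4 and CDK6 and keep them from D cyclins, so that the retinoblastoma proteins stay active and E2F factors stay silent; Cip/Kip proteins bind whole cyclin and CDK complexes, chiefly those of CDK2. Heart muscle cells divide in the fetus and leave the cell cycle around birth. p27 is controlled largely through destruction of the protein, which RNA does not measure, and Cdkn1c is an imprinted gene expressed from the maternal allele.

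Promoter windows of 4 members whose values are compared below are shown, to set those of Cdkn1b, Cdkn2c and Cdkn2d, the members with the largest negative fold changes over all 6 libraries, beside that of Cdkn3, a gene of dividing cells. Each window holds the 250 bases before an annotated start, from RefSeq on GRCm38.p6, the build also named mm10, and is printed 5′ to 3′ along the gene's strand; the RefSeq starts of Cdkn2c and Cdkn2d lie inside the gene spans given below from GENCODE M21. Capitals mark matches on either strand to the CCAAT box (CCAAT), the GC box (GGGCGG), the cell cycle homology region (TTTGAA) and an E2F site (TTTNNCGC); none of the matches marked in the printed windows overlap. The windows are chr6:134920151-134920400 (plus strand) for Cdkn1b, chr4:109666757-109667006 (minus strand) for the first listed start of Cdkn2c, chr9:21291210-21291459 (minus strand) for Cdkn2d and chr14:46760291-46760540 (plus strand) for Cdkn3.
Cdkn1b: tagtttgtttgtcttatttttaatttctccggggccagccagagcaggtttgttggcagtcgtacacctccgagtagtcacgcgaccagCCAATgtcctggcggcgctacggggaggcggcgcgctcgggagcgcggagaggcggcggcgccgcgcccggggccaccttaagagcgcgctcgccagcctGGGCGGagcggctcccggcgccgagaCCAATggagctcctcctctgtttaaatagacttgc
Cdkn2c: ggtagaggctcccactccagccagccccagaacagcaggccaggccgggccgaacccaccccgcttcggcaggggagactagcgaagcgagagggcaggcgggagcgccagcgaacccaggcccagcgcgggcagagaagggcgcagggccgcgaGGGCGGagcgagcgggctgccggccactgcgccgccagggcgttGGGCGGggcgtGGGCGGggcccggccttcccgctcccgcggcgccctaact
Cdkn2d: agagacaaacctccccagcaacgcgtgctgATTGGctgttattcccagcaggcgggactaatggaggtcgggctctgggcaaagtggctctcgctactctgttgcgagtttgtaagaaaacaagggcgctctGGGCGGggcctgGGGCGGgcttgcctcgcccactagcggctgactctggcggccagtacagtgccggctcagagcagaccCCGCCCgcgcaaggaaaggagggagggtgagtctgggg
Cdkn3: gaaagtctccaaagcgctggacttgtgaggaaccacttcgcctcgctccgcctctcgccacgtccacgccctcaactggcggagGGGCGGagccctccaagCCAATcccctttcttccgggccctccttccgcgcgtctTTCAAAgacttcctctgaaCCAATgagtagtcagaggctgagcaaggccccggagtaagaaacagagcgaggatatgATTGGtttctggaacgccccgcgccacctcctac

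RefSeq windows were found for 6 of the 7 members, all but Cdkn1c. All 4 printed windows held a GC box, and they differed in the other motifs. Cdkn3 held 3 CCAAT matches, 149, 92 and 34 bases before the start, with a TTTGAA match 111 bases before it between the outer pair and 1 GC box 166 bases before it. Cdkn2c held 3 GC boxes, 95, 51 and 40 bases before the start, and no match to the other motifs. Cdkn2d also held 3 GC boxes, at 118, 106 and 38 bases, and 1 CCAAT match at 220 bases. Cdkn1b held 2 CCAAT matches, at 161 and 35 bases, and 1 GC box at 61 bases. Over 32851 RefSeq windows of this length, 33.8% held CCAAT, 32.7% GGGCGG, 16% TTTGAA and 4.28% TTTNNCGC. The E2F letters were in none of the 4 printed windows but in both windows of Cdkn2a, 99 and 244 bases before its starts. Such matches describe letters only.

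Recovered reads totalled 5514800 to 6483168 per Gas2l3 -/- library and 3414257 to 7732674 per wildtype library. Gas2l3 itself stood at 4.03, 2.99 and 3.06 FPKM in Gas2l3 -/- replicates 1, 2 and 3 and at 10.3, 4.12 and 2.48 FPKM in wildtype replicates 1, 2 and 3, so the groups overlapped (log2 fold change −0.47, SE 0.44). It was −0.88 without wildtype replicate 3, 0.047 without wildtype replicate 1 and −0.65 with trends removed, where the groups did not overlap. A value per gene includes any exons that remain, so it does not check the genotype. Wildtype replicate 3 stood apart, with a mean correlation to the other libraries of 0.899 against 0.935 to 0.957 for the rest. Its deviations from the gene means correlated with GC content at 0.702, against −0.481 to −0.0709 for the other 5 libraries. Fold changes of the members and of Cdkn1a are therefore given with and without it, and after removal of GC and length trends from every library. All 9 cardiomyocyte markers passed the expression minimum. Of 6 skeletal muscle markers 1 passed it, with Myod1 and Myf5 at 0 in all libraries, and the summed levels were 29.1 to 81.3 FPKM in Gas2l3 -/- and 22.4 to 73.7 FPKM in wildtype libraries. Of 6 erythroid markers 3 passed, with Hba-a1, Hbb-bs and Hbb-bt listed at 0, and the sums were 29.0 to 122.6 FPKM in Gas2l3 -/- (highest in replicate 1) and 28.0 to 49.5 FPKM in wildtype libraries. Of 10 markers of lung, liver, thymus and fat 2 passed, with Nkx2-1 at 0, and the sums were 0.479 to 13.2 FPKM in Gas2l3 -/- and 0.942 to 11.3 FPKM in wildtype libraries.

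Cdkn1c (p57) was the most abundant of the 7 and Cdkn2a (p16 and p19Arf) the least. Mean FPKM over the 6 libraries were 151 for Cdkn1c, 92.6 for Cdkn2d (p19), 29.2 for Cdkn2c (p18), 23.8 for Cdkn1b (p27), 21.1 for Cdkn3, 0.485 for Cdkn2b (p15) and 0.141 for Cdkn2a. Among the tested genes, whose median was 10.4 FPKM, 95.5% lay below Cdkn1c and 92.8% below Cdkn2d. The order of Cdkn1c above Cdkn2d held in 5 of 6 libraries, wildtype replicate 3 being the exception, and that of Cdkn2d above Cdkn2c in all 6. Cdkn2c, Cdkn1b and Cdkn3 were not separated beyond their spread: Cdkn2c lay above Cdkn1b in 4 of 6 libraries and Cdkn1b above Cdkn3 in 4 of 6. Cdkn3 exceeded Cdkn2b in all 6. Of the 4 INK4 genes, Cdkn2c and Cdkn2d thus made up nearly all of the family's RNA.

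**Figure D1:**
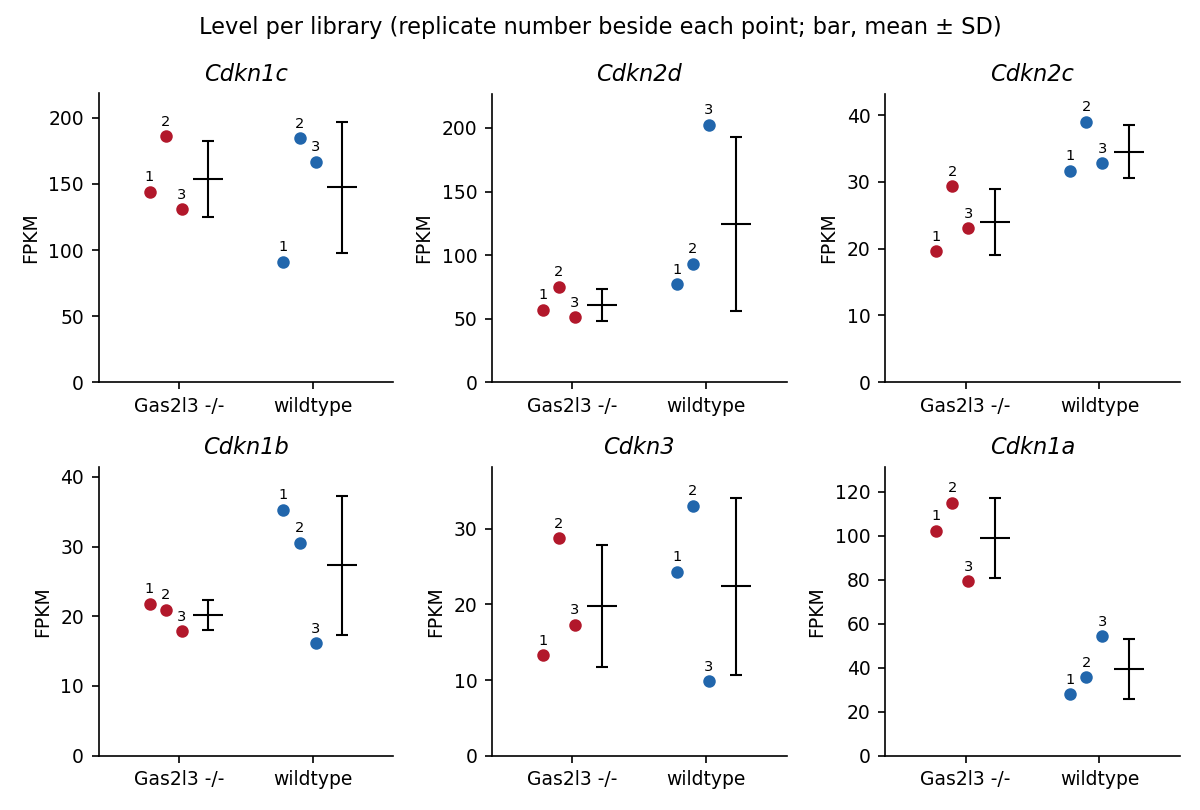
FPKM (linear axes from 0) of the 5 members above the expression minimum and of Cdkn1a, with Gas2l3 -/- libraries left of wildtype libraries; points are libraries with their replicate numbers, bars are mean ± SD (n = 3). Cdkn2c and Cdkn2d are lower in every Gas2l3 -/- library than in any wildtype library, Cdkn1a is higher in every one, and the groups overlap for Cdkn1c, Cdkn1b and Cdkn3.

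Cdkn1b encodes p27, an inhibitor of CDK2 complexes (chromosome 6, 134920401 to 134925513, plus strand, ENSMUSG00000003031.14, GRCm38). It stood at 21.8, 20.95 and 17.8 FPKM in Gas2l3 -/- replicates 1, 2 and 3, against 35.3, 30.6 and 16.1 FPKM in wildtype replicates 1, 2 and 3. The first 2 wildtype replicates lay above all Gas2l3 -/- libraries and wildtype replicate 3 below all of them. Means were 20.2 ± 2.10 FPKM in Gas2l3 -/- and 27.3 ± 9.98 FPKM in wildtype hearts (SD, n = 3 each), a log2 fold change on the log2(FPKM + 0.5) scale of −0.36 (SE 0.33, 95% interval −1.11 to 0.39, limma adjusted p = 0.966). Without wildtype replicate 3 it was −0.69 (adjusted p = 0.975, limma), and without wildtype replicate 1 it was −0.14. The gene is low in GC content (43.1%), and with GC and length trends removed it came to −0.59 (SE 0.16, limma adjusted p = 0.436). On that scale the Gas2l3 -/- libraries lay at log2 values of 4.29, 4.28 and 4.18, all below the wildtype libraries at 4.95, 4.90 and 4.66; 8.47% of all 11709 genes with a GC value were lower without overlap there.

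Cdkn1c encodes p57, the imprinted Cip/Kip inhibitor of fetal tissues (chromosome 7, 143458339 to 143461050, minus strand, ENSMUSG00000037664.13). It stood at 144, 186 and 131 FPKM in Gas2l3 -/- replicates 1, 2 and 3, against 91.3, 184 and 167 FPKM in wildtype replicates 1, 2 and 3. The groups overlapped, with wildtype replicate 1 the lowest of all and replicate 2 of each group nearly level. Means were 154 ± 28.8 FPKM in Gas2l3 -/- and 148 ± 49.5 FPKM in wildtype hearts (SD, n = 3 each), with a log2 fold change of 0.11 (SE 0.36, 95% interval −0.72 to 0.93, limma adjusted p = 0.980). The interval includes changes of both signs. The value was 0.23 without wildtype replicate 3 and 0.37 with trends removed, but −0.21 without wildtype replicate 1 and −0.039 without Gas2l3 -/- replicate 2. Its annotation overlaps the antisense gene Gm44732 on the other strand, and as use of strand in counting is not given in the sources used here, reads of the pair cannot be told apart. The same limit applies to Cdkn1a, which also overlaps a gene annotated on the other strand.

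INK4 genes fell into an expressed and a nearly silent pair. Cdkn2a, whose 2 annotated transcripts give the INK4 protein p16 and the unrelated p53 activator p19Arf, held 1, 1 and 0 reads in Gas2l3 -/- replicates 1, 2 and 3 and 0, 1 and 3 reads in wildtype replicates 1, 2 and 3. A count of 0 allows up to 3 reads, a limit that covers counting error only and does not apply to libraries with reads. Every library held 3 reads or fewer, and no fold is given. A count of 3 reads equals 0.382 to 0.490 FPKM in Gas2l3 -/- and 0.347 to 0.704 FPKM in wildtype libraries. Cdkn2b, which encodes p15 and responds to TGF-beta signalling, held 6, 2 and 5 reads in Gas2l3 -/- libraries and 1, 1 and 10 in wildtype libraries, or 0.665, 0.266 and 0.518 FPKM against 0.191, 0.0942 and 1.18 FPKM. The groups overlapped for both genes, which lie 11645 bases apart on chromosome 4 (Cdkn2a at 89274471 to 89294653, Cdkn2b at 89306299 to 89311039, both on the minus strand). Neither reached the expression minimum, and differences of either were not detectable at this depth.

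Cdkn2c encodes p18 (chromosome 4, 109660876 to 109667189, minus strand, ENSMUSG00000028551.14). It stood at 19.6, 29.4 and 23.1 FPKM in Gas2l3 -/- replicates 1, 2 and 3, against 31.7, 39.0 and 32.8 FPKM in wildtype replicates 1, 2 and 3. Every Gas2l3 -/- library lay below every wildtype library. Means were 24.0 ± 4.95 FPKM in Gas2l3 -/- and 34.5 ± 3.97 FPKM in wildtype hearts (SD, n = 3 each), with a log2 fold change of −0.53 (SE 0.26, 95% interval −1.12 to 0.072, limma adjusted p = 0.966). Without wildtype replicate 3 it was −0.56. With trends removed it was −0.29 and the groups overlapped, since wildtype replicate 3, at a log2 value of 4.31, then lay below all Gas2l3 -/- libraries.

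Cdkn2d encodes p19, the INK4 protein distinct from p19Arf (chromosome 9, 21288410 to 21291407, minus strand, ENSMUSG00000096472.2). It stood at 56.9, 75.1 and 51.0 FPKM in Gas2l3 -/- replicates 1, 2 and 3, against 76.9, 93.3 and 203 FPKM in wildtype replicates 1, 2 and 3. Again every Gas2l3 -/- library lay below every wildtype library, but Gas2l3 -/- replicate 2 came close to wildtype replicate 1 and wildtype replicate 3 was far above the rest. Means were 61.0 ± 12.6 FPKM in Gas2l3 -/- and 124 ± 68.3 FPKM in wildtype hearts (SD, n = 3 each), with a log2 fold change of −0.91 (SE 0.40, 95% interval −1.82 to 0.0081, limma adjusted p = 0.966). Without wildtype replicate 3 the log2 fold change was −0.49. With trends removed it was −0.70 (SE 0.20, limma adjusted p = 0.472), and the groups did not overlap: log2 values were 6.20, 6.06 and 5.83 in Gas2l3 -/- and 6.76, 6.45 and 6.97 in wildtype libraries.

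Cdkn3 encodes a phosphatase that removes the activating phosphate from CDK2 and is expressed in dividing cells (chromosome 14, 46760541 to 46771669, plus strand, ENSMUSG00000037628.10). It stood at 13.3, 28.8 and 17.3 FPKM in Gas2l3 -/- replicates 1, 2 and 3, against 24.3, 33.1 and 9.83 FPKM in wildtype replicates 1, 2 and 3. The groups overlapped, wildtype replicate 3 being the lowest of all; each value rests on 46 to 193 reads. Means were 19.8 ± 8.03 FPKM in Gas2l3 -/- and 22.4 ± 11.7 FPKM in wildtype hearts (SD, n = 3 each), with a log2 fold change of −0.085 (SE 0.47, 95% interval −1.15 to 0.98, limma adjusted p = 0.987). Without wildtype replicate 3 it was −0.58, and with trends removed it was −0.17. Without wildtype replicate 2 it was 0.27, and with a common total for all libraries it was 0.083, so its direction was not settled.

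In the fit over all genes, 0 of the 5 tested members were called by limma at an adjusted p under 0.05, where 0% of all 12121 tested genes were called. At an unadjusted p under 0.05 the count was 0 of 5 members against 3.25% of all genes (394), and limma-voom on recovered reads called 0 members and 0 genes, with 1 member, Cdkn2d, and 375 genes at an unadjusted p under 0.05. With trends removed limma called 0 of 5 members and 0.00854% of genes, and 2 members, Cdkn1b and Cdkn2d, had an unadjusted p under 0.05, as did 7.83% of genes. Means were lower in Gas2l3 -/- hearts for 4 of 5 members, against 51% of tested genes. The groups did not overlap, in the lower direction, for 2 of 5 members, Cdkn2c and Cdkn2d, against 4.74% of tested genes (9.76% in either direction). With so few members nothing particular to them follows from these shares. In the authors' deposited table, where 9 genes (0.0735% of 12243) passed an adjusted p under 0.05, the members' log2 fold changes were −0.71 for Cdkn2d (adjusted p = 0.989), −0.42 for Cdkn2c, −0.32 for Cdkn1b, −0.11 for Cdkn3 and 0.044 for Cdkn1c. Cdkn1a stood at 1.01 (adjusted p = 0.127) in the authors' deposited table. Those values come from the authors' own fit, in which no gene had a standard error above 0.311. Their sizes are therefore not directly comparable with the limma fold changes.

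**Figure D2:**
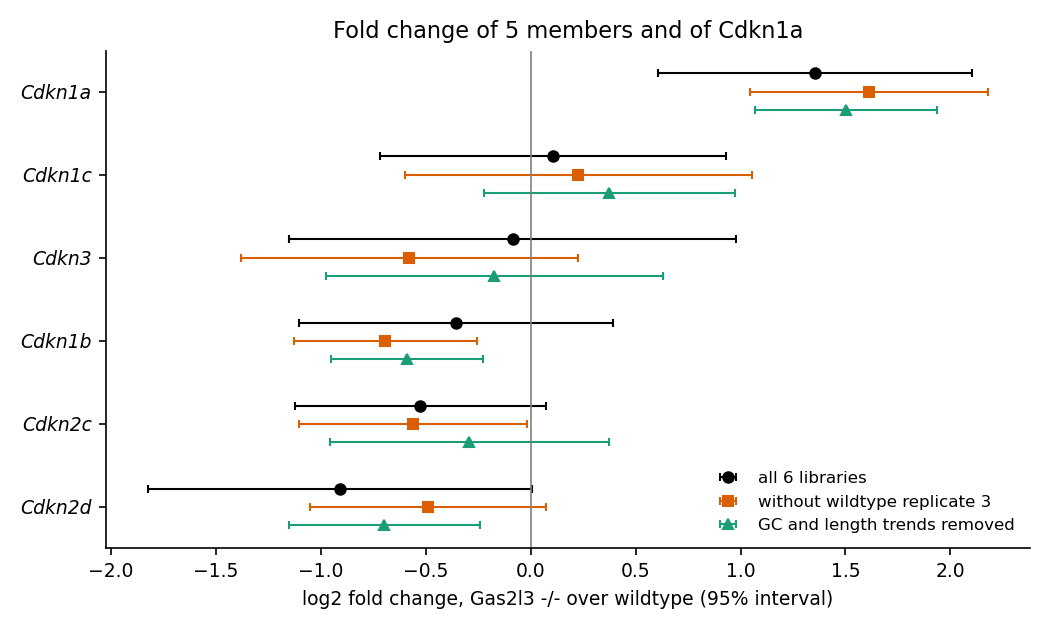
Log2 fold change (Gas2l3 -/- over wildtype, horizontal axis) of 5 members and Cdkn1a from all 6 libraries, without wildtype replicate 3, and with GC and length trends removed; bars are unadjusted 95% intervals of the limma fit. With all 6 libraries and trends kept, the intervals of all 5 members include 0. Those of Cdkn1b and Cdkn2c exclude 0 without wildtype replicate 3, and those of Cdkn1b and Cdkn2d exclude 0 with trends removed. The points of Cdkn2d, Cdkn2c, Cdkn1b and Cdkn3 lie below 0 and those of Cdkn1c above 0 in all 3 settings. Cdkn1a lies above 1 in all 3.

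Cdkn1a, the p21 gene and the reference for these members, stood at 102, 115 and 79.2 FPKM in Gas2l3 -/- replicates 1, 2 and 3, against 27.9, 35.8 and 54.3 FPKM in wildtype replicates 1, 2 and 3. Its groups did not overlap, higher in Gas2l3 -/-, as for 5.02% of tested genes, with a log2 fold change of 1.35 (SE 0.33, 95% interval 0.61 to 2.10, limma adjusted p = 0.966). Because a difference in call is not a test between genes, the log2 ratio of each member to Cdkn1a within a library was compared between groups by a two-sided exact permutation test, in which 3 against 3 cannot give a p below 0.1. For Cdkn2d the difference was the largest of the 5 with all 6 libraries, but not without wildtype replicate 3: its log2 ratio averaged −0.69 ± 0.13 in Gas2l3 -/- and 1.57 ± 0.28 in wildtype hearts (SD, n = 3 each), a difference of −2.26 (exact p = 0.1, 0.125 adjusted over 5 members). In FPKM, Cdkn2d was 0.557, 0.654 and 0.644 times Cdkn1a in Gas2l3 -/- hearts and 2.76, 2.61 and 3.73 times Cdkn1a in wildtype hearts.

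The ratio to Cdkn1a was lower in every Gas2l3 -/- library than in any wildtype library for 4 of the 5 members. Differences were −1.88 for Cdkn2c, −1.71 for Cdkn1b and −1.25 for Cdkn1c, each with the smallest exact p this test allows (0.1, adjusted 0.125). The test permuted all libraries freely and did not use the replicate numbers as pairs. For Cdkn3 the difference was −1.44 (exact p = 0.3, adjusted 0.3) and the groups overlapped through wildtype replicate 3. No difference passed 0.05, which this test cannot do with 3 libraries a group. All 5 ratios share Cdkn1a, so they are not independent. Cdkn1a itself was higher without overlap, so a ratio can separate the groups without a change in the member. The ratio of Cdkn1c did not overlap although its own log2 fold change was 0.11. The share of all tested genes whose ratio to Cdkn1a separates was not computed, so nothing particular to the members follows from this count. None of the 5 differences changed sign in 11 alternatives; the differences without wildtype replicate 3 were −2.10 for Cdkn2d, −2.17 for Cdkn2c, −2.31 for Cdkn1b, −1.39 for Cdkn1c and −2.19 for Cdkn3.

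**Figure D3:**
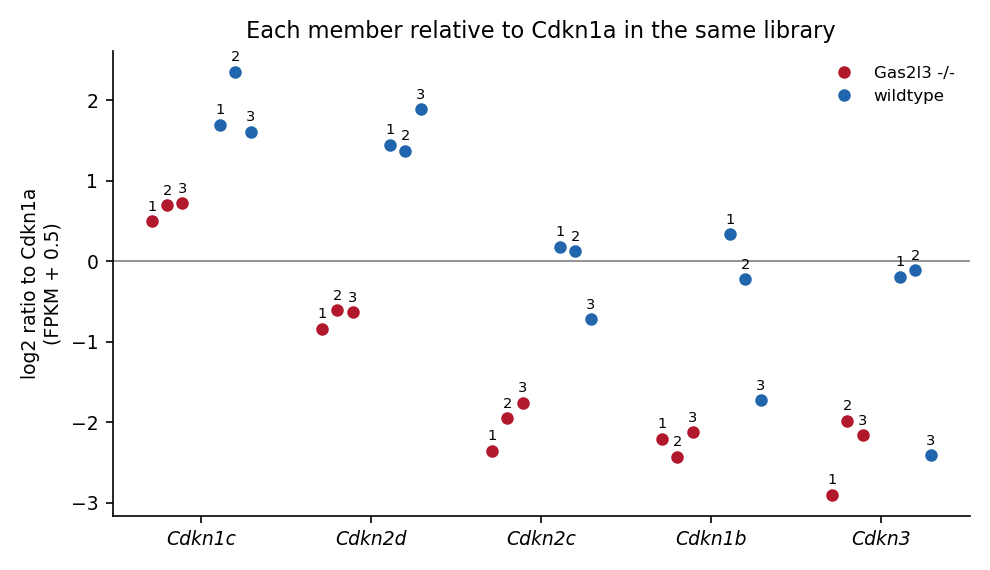
Log2 ratio of each member to Cdkn1a (vertical axis, FPKM + 0.5) in the same library; points are libraries with replicate numbers, Gas2l3 -/- left of wildtype. Cdkn1c stays above Cdkn1a in every library, Cdkn2d lies below it in the Gas2l3 -/- and above it in the wildtype libraries, and the groups overlap for Cdkn3 alone.

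Summed over the 7 members, inhibitor FPKM came to 256, 341 and 241 in Gas2l3 -/- replicates 1, 2 and 3, against 260, 381 and 430 in wildtype replicates 1, 2 and 3. Cdkn1a equalled 0.355 ± 0.0379 of that sum in Gas2l3 -/- and 0.109 ± 0.0163 of it in wildtype hearts (SD, n = 3 each). Ranked with the 7 by level, Cdkn1a was in place 2 in all 3 Gas2l3 -/- libraries and in places 5, 4 and 3 in the wildtype libraries. Within the Cip/Kip family, Cdkn1a made up 38.1%, 35.7% and 34.7% of the family's FPKM in Gas2l3 -/- hearts and 18.04%, 14.3% and 22.9% in wildtype hearts. Cdkn1a itself was higher without overlap, so its ratio, place and share can differ without a change in the members. None of these was tested. The Cdkn1b and Cdkn1c sum overlapped, at 174 ± 29.9 FPKM in Gas2l3 -/- and 175 ± 44.8 FPKM in wildtype hearts (SD, n = 3 each).

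The INK4 sum was lower in every Gas2l3 -/- library, at 77.3, 105 and 74.6 FPKM, than in the wildtype libraries, at 109, 133 and 237 FPKM. Set against its targets, it was 0.473, 0.489 and 0.389 times the summed FPKM of Cdk4 and Cdk6 in Gas2l3 -/- hearts and 0.648, 0.538 and 0.495 times that sum in wildtype hearts. The highest Gas2l3 -/- ratio lay just under the lowest wildtype one. These sums follow from the members' own values, chiefly those of Cdkn2d, at 203 FPKM in wildtype replicate 3, and were not tested. They were not computed with trends removed, where the groups overlapped for Cdkn2c. How often sums of other genes separate the groups was not computed.

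**Figure D4:**
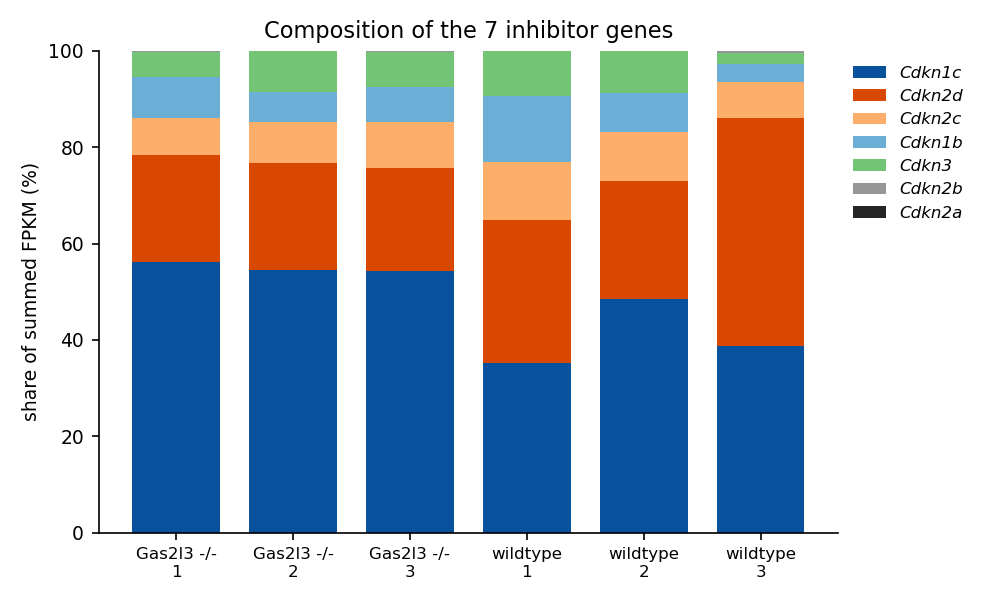
Share of each of the 7 genes in their summed FPKM (vertical axis, %) per library, Gas2l3 -/- libraries left of wildtype. Cdkn1c takes 54.4% to 56.2% in the Gas2l3 -/- libraries and 35.2% to 48.5% in the wildtype libraries, and Cdkn2d takes 47.1% in wildtype replicate 3.

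Partners and targets of the inhibitors were described as lists, by counts and medians beside all tested genes, whose median log2 fold change was −0.0089; of these 51% had lower means, 4.74% were lower without overlap and 5.02% higher without overlap. No gene of any list was called by limma, and the counts below are of means or of groups that did not overlap. Of 15 tested CDK and cyclin partners, 9 had lower and 6 higher means in Gas2l3 -/- hearts (median −0.24, or −0.11 without wildtype replicate 3 and −0.38 with trends removed), and the groups did not overlap for 2 lower and 2 higher. Ccnd2, a D cyclin that INK4 proteins keep from CDK4 and CDK6, stood at 151, 117 and 126 FPKM in Gas2l3 -/- replicates 1, 2 and 3 and at 73.4, 72.8 and 39.7 FPKM in wildtype replicates 1, 2 and 3. Every Gas2l3 -/- library lay above every wildtype library (log2 fold change 1.12, SE 0.33, limma adjusted p = 0.966). Ccnb2, a mitotic cyclin, and Cdk2, the kinase that p27 and Cdkn3 act on, lay lower without overlap, at −0.73 (SE 0.24) and −0.46 (SE 0.24), while Ccna2 overlapped at −0.52 (SE 0.30).

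Retinoblastoma proteins and E2F factors, downstream of the inhibited kinases, had 7 of 13 lower means (median −0.11, or −0.21 without wildtype replicate 3 and 0.12 without wildtype replicate 1), with the groups not overlapping for 2, both lower. Those were the atypical E2F genes E2f8, at 5.57, 6.14 and 5.45 FPKM in Gas2l3 -/- and 9.32, 10.5 and 10.3 FPKM in wildtype libraries (log2 fold change −0.76, SE 0.22), and E2f7 (−0.51, SE 0.24). E2f5, a further repressor, overlapped at 0.80 (SE 0.50). E2f1, an activator, stood at 13.6 ± 3.63 FPKM in Gas2l3 -/- and 32.9 ± 20.7 FPKM in wildtype hearts (log2 fold change −1.09, SE 0.44). Its groups overlapped, with 55.9 FPKM in wildtype replicate 3. S and G2/M marker genes had lower means for 16 of 18 (median −0.66), 11 of them lower without overlap, among them Aurka at −0.86, Birc5 at −0.83, Rrm2 at −0.85 and Cenpf at −0.89. Targets of p53 including Cdkn1a had higher means for 15 of 17 (median 0.83), with 10 higher and 1 lower without overlap, among them Eda2r at 1.72, Fas at 1.18 and Zmat3 at 1.02. The S and G2/M and p53 lists were chosen knowing how they moved in these libraries, so their counts are no independent evidence.

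Genes that act on the inhibitors had members with higher and with lower means. Of 12 genes of p27 and p57 turnover, 8 had lower means (median −0.19, or −0.12 without wildtype replicate 3), and the groups overlapped for all 12. Fbxl12, an F-box gene acting on p57, was at −0.62 (SE 0.33), Rnf123, a ubiquitin ligase gene acting on p27, at −0.31 (SE 0.28), Cops5, which promotes export and degradation of p27, at 0.72 (SE 0.44) and Skp1a, a subunit of SCF ligases, at 0.43 (SE 0.46). Of 18 tested regulators of inhibitor transcription, such as FOXO, SMAD and Polycomb genes, 13 had lower means (median −0.078), and the groups overlapped for all 18. Those with the smallest p were Hand1 at −0.70 (SE 0.40), Hand2 at −0.47 (SE 0.34), the Polycomb gene Cbx8 at −0.50 (SE 0.39) and Zbtb17, which encodes the MYC partner MIZ1, at −0.43 (SE 0.34). With a common total for all libraries, which moved the median of all genes to 0.15, the regulators' median was 0.093.

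The imprinted domain of Cdkn1c on chromosome 7 had 5 of 10 listed genes above the expression minimum, 3 of them with lower means (median −0.064, or 0.034 without wildtype replicate 3, −0.33 without wildtype replicate 1 and −0.017 with trends removed). Kcnq1, a potassium channel gene, stood at 14.3, 13.8 and 13.98 FPKM in Gas2l3 -/- and 19.7, 16.7 and 39.4 FPKM in wildtype libraries, lower without overlap (log2 fold change −0.72, SE 0.34, limma adjusted p = 0.966). Tssc4 was at −0.43 (SE 0.41), Nap1l4 at 0.11 (SE 0.30) and Osbpl5 at −0.064 (SE 0.31), all overlapping. Kcnq1ot1, the noncoding RNA whose paternal expression silences the domain, ranged from 0.0554 to 0.144 FPKM in Gas2l3 -/- and from 0.0157 to 0.194 FPKM in wildtype libraries.

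**Figure D5:**
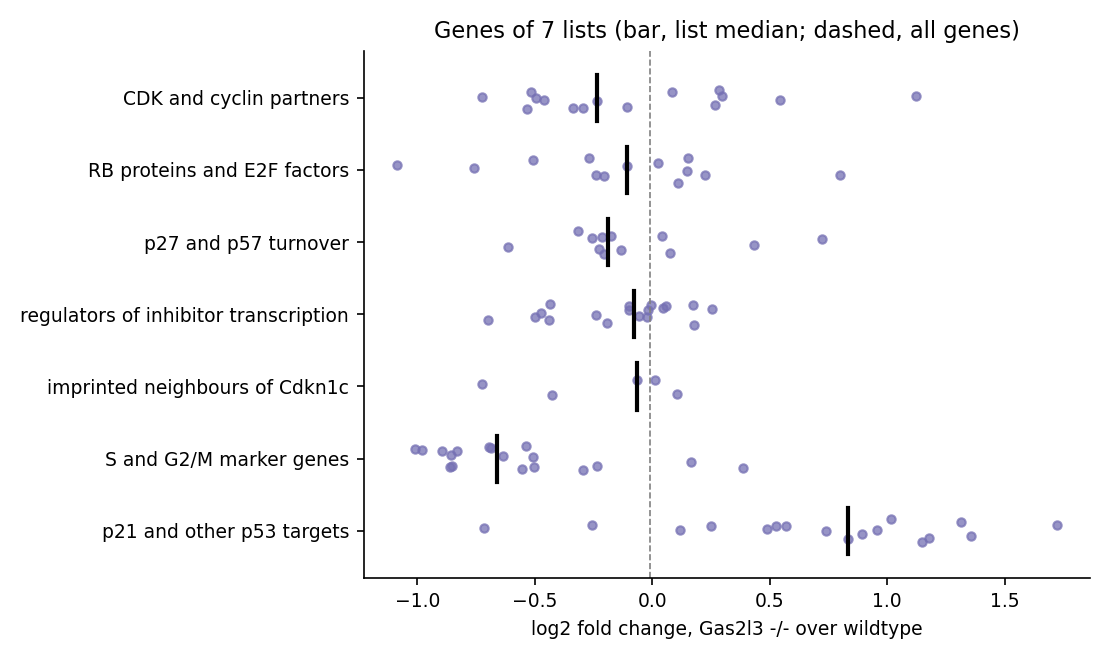
Log2 fold change (Gas2l3 -/- over wildtype, horizontal axis) of each tested gene in 7 lists; points are genes (vertical scatter within a list has no meaning), black bars the list medians and the dashed line the median of all tested genes. The S and G2/M median lies at −0.66 and the p53 target median at 0.83, while the other 5 medians lie between −0.24 and −0.064.

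Genes whose levels were most like each member's were found by Pearson correlation over the 6 libraries among 8627 genes with a mean of 5 FPKM or more. The libraries share depth and GC trends, so the likeness is a description. Nearest to Cdkn2d were Gadd45b (r = 0.999), Car14 (r = 0.999) and Irx4 (r = 0.998), each, like Cdkn2d, highest in wildtype replicate 3. Nearest to Cdkn1b were Adhfe1 (r = 0.991), the mitotic cyclin gene Ccnb1 (r = 0.980) and Pcgf1 (r = 0.975), each lowest in wildtype replicate 3. Cdkn2c was nearest to Ears2 (r = 0.973), Pdcd7 (r = 0.969) and Wee1 (r = 0.959), which encodes a kinase that inhibits CDK1. Cdkn1c was nearest to Cd52 (r = 0.981), Psme3 (r = 0.972) and Morn4 (r = 0.967). Cdkn3 was nearest to Gpn1 (r = 0.986), Upf3a (r = 0.985) and Hmgb3 (r = 0.979).

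Among markers of cell types of the heart, macrophage sums differed without overlap and the others overlapped. The summed level of 9 cardiomyocyte markers was 30790 to 35494 FPKM in Gas2l3 -/- and 35055 to 52585 FPKM in wildtype libraries (median log2 fold change −0.50), overlapping slightly and highest, like Cdkn2d, in wildtype replicate 3. The FPKM of all genes also summed highest in that library, to 788996 against 429622 to 630522 in the others. Marker sums were not scaled to these totals, so a high sum there is not particular to the markers. For 6 macrophage markers, 5 of them above the expression minimum, the sum was 47.0 to 86.0 FPKM in Gas2l3 -/- and 27.6 to 36.8 FPKM in wildtype libraries, without overlap (median log2 fold change 0.23). Sums of fibroblast, endothelial, smooth muscle and epicardial markers overlapped between the groups, with median log2 fold changes of 0.35, 0.070, 0.070 and 0.031. In these bulk hearts fewer cells of a type and less RNA per cell cannot be told apart, and the part of cell makeup in the members' values was not tested.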

How the data were processed

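Poly(A) RNA of E18.5 hearts was selected with magnetic beads and libraries made with 13 PCR cycles, per the labels' protocols. FastQC, DESeq2 and mm10 are named in the submitters' processing notes; aligner, counter, annotation and use of strand: not given in the sources used here. The authors deposited FPKM values for each library and, separately, their own group comparison, which per the file headers holds p-values, log2 fold changes with standard errors, and mean normalized counts. Whole reads were recovered from both tables: all 94235 values above 0 were whole within 0.01 (100%).

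The members, the gene lists and the naming rule were chosen with earlier results of these data known. Moderated tests, two-sided, of limma 3.58.1 (eBayes with trend, under R 4.3.3) were run on log2(FPKM + 0.5), a scale that understates changes of low genes, over 12121 genes with 1 FPKM or more in at least 3 libraries, with Benjamini-Hochberg adjustment and calls under 0.05. A limma fit was used because the deposited unit is FPKM. The fit was tested on simulated data. Named were the members, Cdkn1a, Gas2l3, up to 4 genes of each list by smallest p and the 3 genes most like each member; predicted genes (Gm, Rik and LOC symbols) were left out. Kcnq1ot1, Gm44732, Ccnd1 and Ccnd3 fall outside that rule and were chosen after their values or positions were seen.

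Same-numbered libraries deviated together (correlations 0.472, 0.443 and 0.186 for replicates 1, 2 and 3, against −0.396 to 0.0715 for unlike numbers), so the numbers were taken as pairs from the data and the number was also fitted as a block. GC and length trends were kept in these correlations. Both libraries numbered 1 shared them (GC −0.481 and −0.474, length 0.336 and 0.351 in Gas2l3 -/- and wildtype). Those numbered 2 shared a length trend (−0.413 and −0.308). Trends on GC content (longest GENCODE M21 transcript, 11709 genes) and length were removed per library by loess (span 0.3), a step chosen after seeing the data when run without the block. Further settings tried were voom on reads, each library left out, quantile or common-total scaling, pseudocounts of 0.1 or 1, and an absent filter or one at a mean of 5 FPKM. Coordinates are 1-based, GRCm38.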

Additional observations from a re-analysis of the deposited data

How the results depend on the processing

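No alternative called a member, and 1 gene of all was called, with GC and length trends removed (Ppp1r1b, log2 fold change −1.80, adjusted p = 0.0401, limma; named after its value was seen), against 0 otherwise. Genes at an unadjusted p under 0.05 ranged from 185 without Gas2l3 -/- replicate 3 to 1467 without wildtype replicate 1, against 394. The replicate block called 0 genes, with 729 at an unadjusted p under 0.05, and with trends removed as well it called 0, with 1287, so it ended the call of Ppp1r1b; it changed no other call. Directions of Cdkn1a, Cdkn1b, Cdkn2c and Cdkn2d held in all 16 alternatives (1.14 to 1.61, −0.69 to −0.14, −0.68 to −0.29 and −1.19 to −0.49 on the log2 scale), while Cdkn1c reversed in 2 and Cdkn3 in 4. With 1 library left out, Cdkn1c ran from −0.21 (without wildtype replicate 1) to 0.30 and Cdkn3 from −0.58 to 0.27; Cdkn3 was at 0.083 with a common total. Cdkn1b was at −0.14 without wildtype replicate 1.

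A common total gave list medians of −0.063 for CDK and cyclin partners, −0.015 for turnover, 0.093 for regulators, 0.057 for RB and E2F genes, 0.11 for imprinted neighbours, −0.49 for S and G2/M genes and 0.99 for p53 targets. The p53 median was 0.57 with a mean of 5 FPKM, and the turnover median −0.066 under quantile normalization. With 1 library left out, medians ran from −0.26 to −0.065 for CDK and cyclin partners, −0.21 to 0.12 (without wildtype replicate 1) for RB and E2F genes, −0.17 to −0.075 for turnover, −0.12 to −0.019 for regulators, −0.33 (without wildtype replicate 1) to 0.034 (without wildtype replicate 3) for imprinted neighbours and 0.64 to 0.90 for p53 targets. The causes of these shifts were not tested. Depth limits Cdkn2a and Cdkn2b, at 0 to 10 reads a library.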
